A study of Danio rerio with 370 samples.

Results

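The RG gate of the adult zebrafish forebrain holds cells with high mCherry fluorescence and no GFP fluorescence, sorted as radial glia from fish that carry the reporters her4.1:mcherry and elavl3:gfp. Its cells were kept here if the log10 of their reads on genes was above 4.5, if the log10 of their number of genes with more than 1 read lay between 2.7 and 3.9, if the 50 most abundant genes took less than 50% of their reads, and if mitochondrially encoded genes took less than 20%. Of the 171 cells in the gate, 73 passed, and they are part of 370 sequenced cells in all. By fish, 7, 11, 5, 15 and 12 of 28 cells each passed in fish 1 to 5, and 23 of 31 passed in fish 6.

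The other gates served as the comparison. The NBN gate held cells with low mCherry and positive GFP, sorted as newborn neurons, of which 164 of 169 passed. The MN gate held cells that were negative for mCherry and positive for GFP, sorted as mature neurons, of which 27 of 30 passed. In the paper some NBN gate cells clustered with mature neurons, and others formed most of a cluster of oligodendrocyte precursors. The paper lists markers that these precursors share with radial glia, so NBN values are those of a mixed gate. All fish were adult and carried both reporters, every cell came from the dissociated telencephalon and anterior diencephalon and was positive for the live dye Calcein Blue, and each was index sorted into its own well and sequenced with SMART-seq2, which reads cDNA along its length and adds no molecular identifiers. The RG and NBN gates came from the same 6 fish and the MN gate from fish 6 only, so that MN values stand beside the others without a test. Fish 1 to 5 formed the sequencing batch bfx855 and fish 6 formed the batch bfx811, so that fish 6 and its batch cannot be told apart. The gates rest on fluorescent proteins driven by the promoters of her4.1 and elavl3, and the low mCherry of the NBN gate is protein that newborn neurons keep from their mother cells. Fish numbers in the first batch come from the sample names, whereas a separate fish label holds 4 values that follow the plates, and a fit with these as fish is given in the closing section.

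Radial glia are the neural stem cells of the adult fish brain. Their cell bodies line the ventricle and their processes reach to the brain's outer surface, and they also do work that astrocytes do in mammals, such as clearing glutamate and buffering ions. Notch signalling, which acts through transcriptional repressors of the Hes family (her genes in fish), holds many of them in a quiescent state, and cells that leave this state can divide and give rise to neurons. Symbols are those of the reference table, which gives many zebrafish genes the capital symbol of their human counterpart, so that copies can share a symbol and are told apart by their identifiers.

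The passing RG cells had 76613 to 549274 reads on genes, with a median of 211548, and a read in 625 to 2817 genes, with a median of 1610. When each cell was thinned to 20000 reads, the median number of genes with a read was 1305 in RG cells, 1252.5 in NBN cells and 1925 in MN cells. Reads were summed per fish and gate for the tests, and these sums held 1539845 to 5473055 reads in the RG gate, against 3228221 to 11933343 in the NBN gate. The filters had no clear gap at their limits. The cells nearest to them had 506 genes inside and 470 outside, 49.98% and 50.47% of reads in the 50 most abundant genes, and 19.87% and 20.28% mitochondrial reads. With any read in place of more than 1 read in the gene count, 76 cells passed.

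The label of the gate was checked against marker genes. Each passing cell held reads of 2 to 17 of the 23 radial glia marker genes, with a median of 12. The list holds her4.1 itself, and also selenop and mdka, a copy of MDK, which the paper reports as markers found in these same cells. For these genes the check is not independent. her4.1, whose promoter drove the reporter of the sort, was read in 68 of 73 RG cells, against 12 of 164 NBN cells and 8 of 27 MN cells. The connexin gene GJA1 was read in 50, the calcium binding protein gene S100B in 60 and the selenium carrier gene selenop in 52 of the 73 cells. The 23 markers together took 2.62%, 4.6% and 6.72% of reads in the RG gate (lowest, median and highest of 6 fish), against 0.279%, 0.476% and 0.688% in the NBN gate, so that the lowest RG sum lay above the highest NBN sum. In fish 6 they took 0.540% of the reads of the MN gate.

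A few cells stood apart from their gate. In 1 RG cell of fish 6, 18 of 22 microglia and macrophage genes had a read and took 4.94% of its reads, whereas no other RG cell had more than 3 of these genes. The same cell had reads of 2 of the 23 radial glia markers and 0 reads of her4.1. In another 2 RG cells of fish 6, 12 and 13 of 25 ciliary genes had a read, the next highest cell had 7, and 35 cells had none. In the NBN gate of fish 6, 1 cell with 178725 reads had a read in 9047 genes, against at most 4419 in any other cell. Counts below are given without the microglia and the 9047-gene cells where they change a call.

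Most genes were read in few cells of the gate. In all, 17205 genes had a read in at least 1 RG cell, but 424 had a read in at least 50% of the cells, 4313 had it in a single cell, and 7 were read in every cell. At 20000 reads a cell, 336 genes were read in at least 50% of the RG cells, against 381 for NBN cells and 789 for MN cells.

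Ribosomal protein genes made up most of what nearly every RG cell shared. A read in at least 95% of cells was found for 48 genes. Of these, 33 encode cytosolic ribosomal proteins and 5 are among the 13 genes listed here as mitochondrially encoded (MT-CO1, MT-CO2, MT-CO3, MT-CYB and MT-ATP6). Of the other genes, eef1a1l1 encodes an elongation factor of translation, actb2 a cytoplasmic actin, HSP90AB1 a chaperone, SLC25A5 the exchanger of ADP and ATP in mitochondria, and TPT1 the translationally controlled tumour protein. FABP7, the brain fatty acid binding protein known as a radial glia gene, was the 1 gene among the 48 that belongs to the 23 radial glia markers. It was read in 71 of 73 RG cells, 50 of 164 NBN cells and 10 of 27 MN cells. The remaining genes were si:dkey-151g10.6, zgc:158463, ENSDARG00000080337 and ENSDARG00000098458. The limit lay in a dense range, since 17 of the 48 genes were read in exactly 70 cells and another 15 in 69.

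The same rule gave a different set in the other gates. In the NBN gate 24 genes passed it, of which 10 were shared with the RG gate and 0 were ribosomal. In the MN gate 105 passed, of which 25 were shared and 16 were ribosomal. At 20000 reads a cell the counts were 38 for RG, 14 for NBN and 70 for MN cells. RPS3A was read in 98.6% of RG cells at that depth, against 74.4% of NBN cells and 70.4% of MN cells. RPS3A had 1086, 2192 and 2571 CPM in the RG gate, against 354, 1254 and 2037 CPM in the NBN gate (lowest, median and highest of 6 fish, with CPM as read counts scaled to a common library size after TMM normalization), and the ranges overlapped. For eef1a1l1 the values were 3747, 6244 and 8357 CPM in the RG gate, against 1951, 5923 and 10915 CPM in the NBN gate. Neither passed the test between the gates (log2 fold change 0.58 for RPS3A and −0.05 for eef1a1l1, whose sign turned under most alternatives). Of the 48 near-universal genes of the RG gate, ENSDARG00000080337, which has no symbol here, had the highest mean level. It had 14945, 24474 and 72526 CPM in the RG gate, against 15597, 22685 and 62182 CPM in the NBN gate.

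The test between the RG and NBN gates was edgeR's quasi-likelihood test on the 6 sums of each gate, adjusted over all genes by the Benjamini-Hochberg method, and is called the edgeR adjusted p from here on. Log2 fold changes are RG over NBN, given with the SE of the fit, over 6 fish in each gate. Of 8393 genes tested, 152 (1.81%) were higher and 559 (6.66%) lower in the RG gate, which together are 8.47%, and the median log2 fold change over all tested genes was −0.69. Shares among the gene lists are to be read against these values. Nothing in the sums separates a gene read in fewer cells from one with fewer reads in each cell, so the number of cells with a read is given beside the levels. The 9047-gene NBN cell moved many sizes. Without it, the log2 fold changes of 42 of 96 called genes named here moved by over 1.5-fold, all upward and by a median of 2.48. That of GJA1 became 13.85, that of ZFP36L2 13.94 and that of selenop 14.45. Where hardly any NBN read is left, as for these, such a size depends on the fit and is not precise.

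Many genes of the Notch pathway rose in the RG gate. Of 28 tested members, 13 were higher (15 with the fish as a block), 0 were lower and the median log2 fold change was 4.98, with her4.1 itself among the 13. The paper calls her4.1 a main target of this pathway, and its promoter drove the reporter of the sort. The rise of the list is therefore not independent of the sort. The 13 also hold copies of her4 and of her15 that may share reads, so they are not 13 separate results. The 41 listed genes took 1.60%, 3.03% and 4.93% of reads in the RG gate, against 0.0654%, 0.115% and 0.194% in the NBN gate, and 0.0449% of the MN reads of fish 6. All of the 13 but DLL1 and the feedback inhibitor NRARP are repressors of the Hes family.

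her4.2 had 3532, 5862 and 13279.8 CPM in the RG gate, against 7.72, 128 and 466 CPM in the NBN gate, and the lowest RG value was above the highest NBN value (log2 fold change 5.11 ± 0.88, edgeR adjusted p = 9.25e-04). her4.4 had 1425, 2648 and 6658 CPM in the RG gate, against 4.87, 71.5 and 161 CPM in the NBN gate, again without overlap (log2 fold change 5.31 ± 0.88, edgeR adjusted p = 7.03e-04). her4.5 rose by 5.06 and her4.3 by 5.03 on the log2 scale (edgeR adjusted p = 0.0038 and 0.007). The her4 copies are near-identical neighbours, and so are her15.1 and her15.2, so that reads could be shared out among copies wrongly and each level is uncertain. her15.1 had 382, 1656 and 3564 CPM in the RG gate, against 0, 21 and 136 CPM in the NBN gate (log2 fold change 5.59 ± 1.27, edgeR adjusted p = 0.0065), and her15.2 rose by 5.31 (edgeR adjusted p = 0.0044).

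HES1, a Hes repressor outside these clusters, had 1473, 2764 and 5278 CPM in the RG gate, against 0.204, 33.9 and 104 CPM in the NBN gate (log2 fold change 6.17 ± 1.26, edgeR adjusted p = 0.0036). Its RG and NBN ranges did not overlap, and it was read in 57 RG cells and 11 NBN cells. DLL1 (ENSDARG00000010791), a membrane-bound ligand of Notch, had 201.2, 764 and 1115 CPM in the RG gate, against 0, 17 and 23 CPM in the NBN gate (log2 fold change 5.58 ± 0.96, edgeR adjusted p = 9.51e-04). It was read in 47 of 73 RG cells and 6 of 164 NBN cells. The other copy of DLL1 (ENSDARG00000020219) had 0, 104 and 243 CPM in the RG gate, against 0, 1.07 and 47.5 CPM in the NBN gate and did not pass the test (log2 fold change 3.02). her2, her8a, NRARP and HES4 rose by 7.87, 6.95, 6.76 and 4.93 on the log2 scale (edgeR adjusted p = 0.017, 0.022, 0.031 and 0.038). All 4 lost the call when single fish were left out. The edgeR adjusted p was 0.067 for her2 and 0.058 for her8a without fish 2, up to 0.077 for NRARP without fish 1, 2, 4 or 5, and up to 0.087 for HES4 without fish 1, 2 or 4.

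The receptor genes of the pathway did not pass the edgeR test without a block. NOTCH3 had 27.1, 186 and 259.6 CPM in the RG gate, against 0, 3.19 and 57.8 CPM in the NBN gate, with overlapping ranges and a log2 fold change of 3.70 ± 1.46 (edgeR adjusted p = 0.17), but passed with the fish as a block (6.07, edgeR adjusted p = 0.039), in DESeq2 (3.91, adjusted p = 0.017) and in thinned cells (3.92, 0.025). It was read in 43 RG cells, 8 NBN cells and 1 MN cell. NOTCH1 (ENSDARG00000052094) was read in 42 RG and 35 NBN cells and had a log2 fold change of 2.44 ± 1.21 (edgeR adjusted p = 0.32, and 0.046 in DESeq2). LFNG, a glycosyltransferase that modifies Notch, had 3.29, 570.3 and 1425 CPM in the RG gate, against 2.74, 74.5 and 167 CPM in the NBN gate and missed the threshold (edgeR adjusted p = 0.066). LFNG passed under 6 alternatives, at 0.035 with RLE size factors, 0.0041 in DESeq2, 0.0085 without fish 3, 0.0496 with all cells, 0.011 in thinned cells and 0.048 without the 9047-gene NBN cell. The ligand gene DLD had 88.6, 154 and 264 CPM in the RG gate, against 69.9, 150.3 and 216 CPM in the NBN gate (log2 fold change 0.08 ± 0.58, edgeR adjusted p = 0.97), and the sign turned without fish 2.

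**Figure D1:**
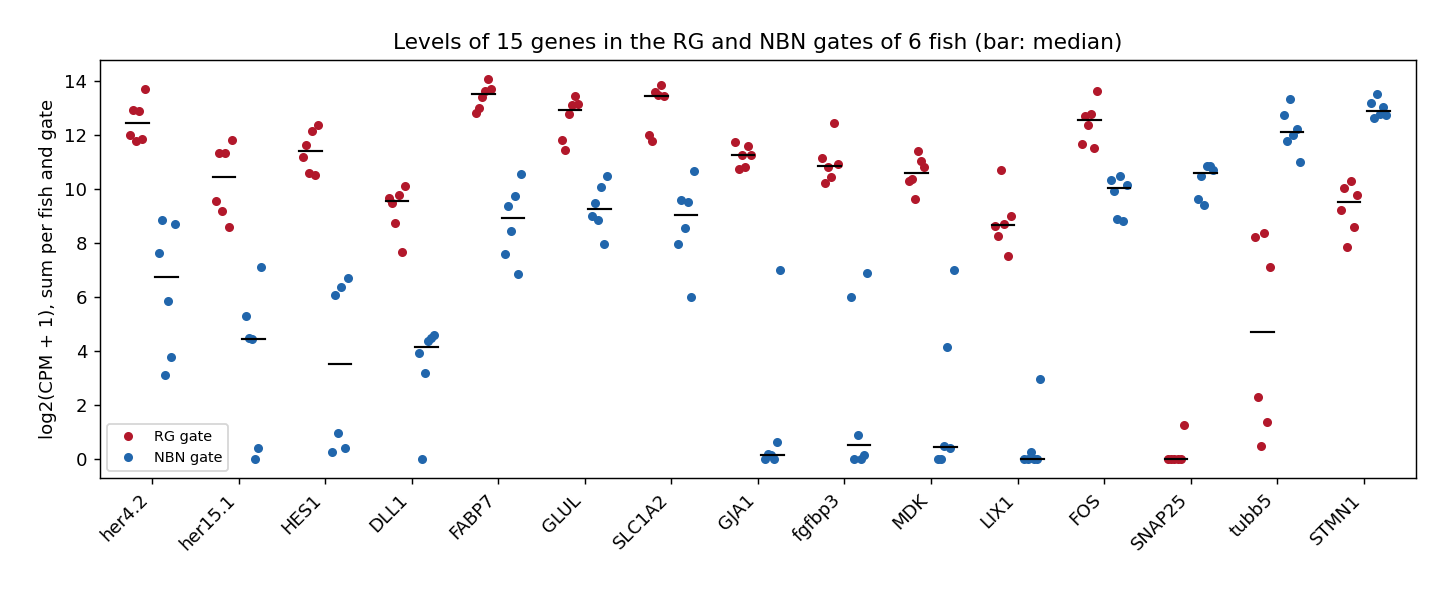
Level of 15 genes in each fish, as log2(CPM + 1) of the reads summed per fish and gate, with the RG gate in red on the left of each panel, the NBN gate in blue on the right, 1 point a fish and a bar at the median of 6 fish. her4.2, HES1, GJA1 and LIX1 lay higher in every RG sum than in any NBN sum, and SNAP25, tubb5 and STMN1 lay lower.

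Of 18 tested radial glia markers, 12 were higher in the RG gate (13 with the fish as a block) and 0 were lower, with a median log2 fold change of 3.71. Among the 12 were her4.1, selenop and MDK (ENSDARG00000036036), whose rise is not independent of the sort or of the earlier marker search in these cells. FABP7 had 7211, 11721 and 17320.0 CPM in the RG gate, against 116, 511 and 1515 CPM in the NBN gate (log2 fold change 4.23 ± 0.55, edgeR adjusted p = 6.69e-05). GJA1 had 1694, 2477 and 3420.0 CPM in the RG gate, against 0, 0.125 and 127 CPM in the NBN gate (log2 fold change 6.89 ± 1.77, edgeR adjusted p = 0.016), and GFAP, the intermediate filament of glia, had 131, 274 and 466 CPM in the RG gate, against 0, 0 and 17.5 CPM in the NBN gate (log2 fold change 6.56 ± 1.65, edgeR adjusted p = 0.014). None of these ranges overlapped between the gates. GFAP was nevertheless read in 22 of 73 RG cells. S100B had 520.4, 745 and 1415 CPM in the RG gate, against 0.116, 23.7 and 117 CPM in the NBN gate (log2 fold change 4.39 ± 0.93, edgeR adjusted p = 0.0044), without overlap. selenop had 466, 1753 and 4122 CPM in the RG gate, against 0, 0 and 105 CPM in the NBN gate (log2 fold change 6.81 ± 1.87, edgeR adjusted p = 0.027), and without fish 5 its edgeR adjusted p was 0.056.

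Some genes used as glial markers did not pass the test. VIM (ENSDARG00000010008), an intermediate filament of neural progenitors, had 226, 266 and 495 CPM in the RG gate, against 113, 374 and 1476 CPM in the NBN gate (log2 fold change −1.02 ± 0.62, edgeR adjusted p = 0.47), and the RG value was the higher one in 3 of 6 fish. ALDOC, an enzyme of glycolysis, had 501, 1435 and 2318 CPM in the RG gate, against 699.6, 1876 and 2553 CPM in the NBN gate (log2 fold change −0.26 ± 0.42, edgeR adjusted p = 0.86, with the sign turned under 6 alternatives), and NDRG2 was read in 11 RG and 43 NBN cells (log2 fold change −1.2 ± 1.23). In the Id genes, which encode inhibitors of neurogenic transcription factors, 0 of 5 passed in edgeR, and 1 did with the fish as a block. DESeq2 called 2 of them higher, and at an unadjusted p under 0.05 there were 3 higher and 1 lower. ID1 had 110.1, 338 and 802 CPM in the RG gate, against 0, 0 and 63.1 CPM in the NBN gate, without overlap (log2 fold change 5.04 ± 1.67, edgeR adjusted p = 0.079). ID1 passed with the fish as a block (log2 fold change 10.28, edgeR adjusted p = 0.0018), without fish 6 (7.34, 0.024), without the 9047-gene NBN cell (7.93, 0.0044), in DESeq2 (5.22, 0.0035), with all cells (5.73, 0.039) and in thinned cells (5.94, 1.71e-04).

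Of 13 tested genes for the uptake of transmitters, 5 were higher and 0 lower, with a median log2 fold change of 0.77. SLC1A2 (ENSDARG00000102453), a transporter that takes glutamate out of the synaptic space, had 3509, 11234 and 14835 CPM in the RG gate, against 63.2, 556 and 1624 CPM in the NBN gate (log2 fold change 3.91 ± 0.63, edgeR adjusted p = 5.06e-04). GLUL, glutamine synthetase, which turns glutamate into glutamine, has a pair of copies. The first (ENSDARG00000099776) had 2804, 7898 and 11048 CPM in the RG gate, against 246, 613 and 1441 CPM in the NBN gate (log2 fold change 3.25 ± 0.46, edgeR adjusted p = 1.70e-04), and both ranges lay apart. The second (ENSDARG00000100003) had 146, 723 and 1711 CPM in the RG gate, against 73.2, 144 and 281 CPM in the NBN gate (log2 fold change 2.41 ± 0.58, edgeR adjusted p = 0.01), with overlap and in 5 of 6 fish higher in the RG gate. SLC1A3, another glutamate transporter, and SLC6A11, a GABA transporter, rose by 5.97 and 4.5 on the log2 scale (edgeR adjusted p = 0.03 and 0.03). Leaving out fish 1 or 2 gave 0.054 and 0.053 for SLC1A3, and leaving out fish 2 or 6 gave 0.065 and 0.060 for SLC6A11.

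Subunits of the sodium pump went in opposite directions. ATP1B4, named as a beta subunit, had 980.1, 1273 and 2850.4 CPM in the RG gate, against 0.204, 36.6 and 151 CPM in the NBN gate (log2 fold change 4.97 ± 1.19, edgeR adjusted p = 0.0095). atp1a3a, the alpha subunit known from neurons, had 0, 0.134 and 1.44 CPM in the RG gate, against 444, 1028 and 1637 CPM in the NBN gate (log2 fold change −11.23 ± 1.05, edgeR adjusted p = 3.44e-06). Neither overlapped between the gates. The beta subunits ATP1B1 and ATP1B2 fell by 10.29 and 6.23 on the log2 scale (edgeR adjusted p = 2.97e-05 and 2.57e-04), and were read in 3 and 12 RG cells, against 67 and 126 NBN cells. In the list of ion and water transport as a whole, 5 of 12 tested genes were higher and 3 lower. SLC4A4, a sodium bicarbonate cotransporter, had 214, 601 and 850.5 CPM in the RG gate, against 0, 3.58 and 30.3 CPM in the NBN gate (log2 fold change 6.24 ± 1.47, edgeR adjusted p = 0.0086). NHERF1, a scaffold of membrane transporters, rose by 7.09 (edgeR adjusted p = 0.023, and 0.052 without fish 2) and was read in 14 RG cells. The potassium channel gene KCNJ10 and the water channel gene AQP1, both known from mammalian glia, were hardly read, with 1 RG cell for each copy of KCNJ10 and 3 RG cells for AQP1.

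Of 26 tested genes of lipid and sterol handling, 3 were higher and 0 lower (2 lower with the fish as a block). Apart from FABP7 these were ptgdsb.1 and ptgdsb.2, copies of a lipocalin-type prostaglandin D synthase. ptgdsb.1 had 289.5, 519 and 955 CPM in the RG gate, against 0, 3.88 and 65.6 CPM in the NBN gate (log2 fold change 4.90 ± 1.16, edgeR adjusted p = 0.0089) and ptgdsb.2 had 717, 1447 and 2798 CPM in the RG gate, against 0, 115 and 278 CPM in the NBN gate (log2 fold change 3.77 ± 0.97, edgeR adjusted p = 0.016), both without overlap.

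Of 28 tested genes of secreted factors and matrix, 8 were higher (10 with the fish as a block) and 1 lower, with a median log2 fold change of 1.66. Both copies of MDK, midkine, a heparin-binding growth factor, were among the 8. The copy ENSDARG00000036036 had 797, 1576 and 2715 CPM in the RG gate, against 0, 0.386 and 127 CPM in the NBN gate (log2 fold change 6.13 ± 1.57, edgeR adjusted p = 0.016), and the copy ENSDARG00000020708 had 851, 1464 and 2779 CPM in the RG gate, against 445, 681 and 838 CPM in the NBN gate (log2 fold change 1.28 ± 0.37, edgeR adjusted p = 0.037). In the NBN gate the first copy was read in 8 and the second in 118 of 164 cells. The call of the second copy was lost with the fish as a block (edgeR adjusted p = 0.097) and without fish 1, 2, 4 or 5 (up to 0.11). The related factor gene PTN had 171, 554 and 1531 CPM in the RG gate, against 0.144, 4.7 and 30.3 CPM in the NBN gate (log2 fold change 6.15 ± 1.23, edgeR adjusted p = 0.0033). fgfbp3, which encodes a carrier of fibroblast growth factors, had 1202, 1859 and 5546 CPM in the RG gate, against 0, 0.481 and 119 CPM in the NBN gate (log2 fold change 6.28 ± 1.61, edgeR adjusted p = 0.017), and SPARC, a matrix glycoprotein, had 31, 244 and 416 CPM in the RG gate, against 0, 0.169 and 11.3 CPM in the NBN gate (log2 fold change 6.54 ± 1.5, edgeR adjusted p = 0.0069). The ranges of PTN, fgfbp3 and SPARC did not overlap.

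WNT7A, a Wnt ligand, rose by 5.71 (edgeR adjusted p = 0.022), PTPRZ1, a receptor of midkine and pleiotrophin, by 4.21 (edgeR adjusted p = 0.02), and TIMP4, an inhibitor of matrix metalloproteinases, by 5.75 (edgeR adjusted p = 0.046). Each of these depended on single fish. The edgeR adjusted p of WNT7A was 0.057 without fish 2 and 0.054 without fish 6, that of PTPRZ1 was 0.090 without fish 4, 0.055 without fish 6 and 0.064 in the blocked fit, and that of TIMP4 was up to 0.090 without any 1 of fish 1 to 5. cspg5a, a chondroitin sulfate proteoglycan gene, fell by 1.59 (edgeR adjusted p = 0.031) and was not called with the block (0.064), without the 9047-gene NBN cell (0.075), or without fish 1, 3, 4, 5 or 6 (up to 0.24). In the list of growth factor signalling, YAP1, a transcriptional coactivator of the Hippo pathway, was the 1 higher gene of 27 tested, at 16.8, 115 and 148 CPM in the RG gate, against 0, 0 and 3.41 CPM in the NBN gate (log2 fold change 7.69 ± 1.90, edgeR adjusted p = 0.012). ERBB4, a neuregulin receptor, was the 1 lower gene (2 with the fish as a block). It had 0 reads in the RG gate, against 8.74, 26.2 and 55 CPM in the NBN gate (edgeR adjusted p = 0.0048). With 3 reads over the 6 RG sums as a floor, it was 151-fold lower. Reads from a cell are not independent counts, so folds from this floor, here and below, are nominal and not firm lower limits.

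Of 21 tested genes of redox, metal and detoxification, 4 were higher and 0 lower. gstp1.2, a glutathione transferase, had 252, 628 and 1171 CPM in the RG gate, against 12.7, 31.8 and 76 CPM in the NBN gate (log2 fold change 4.25 ± 0.63, edgeR adjusted p = 2.38e-04), and MT1X, a metallothionein, had 165, 288 and 919.6 CPM in the RG gate, against 8.04, 16.2 and 31.1 CPM in the NBN gate (log2 fold change 4.55 ± 0.72, edgeR adjusted p = 4.59e-04). cyp2p6, a cytochrome P450, had 20.6, 48.3 and 338 CPM in the RG gate, against 0, 0 and 0.289 CPM in the NBN gate (log2 fold change 10.67 ± 1.68, edgeR adjusted p = 4.15e-04), but was read in 10 RG cells. selenop is the remaining one. All 4 ranges were free of overlap.

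**Figure D2:**
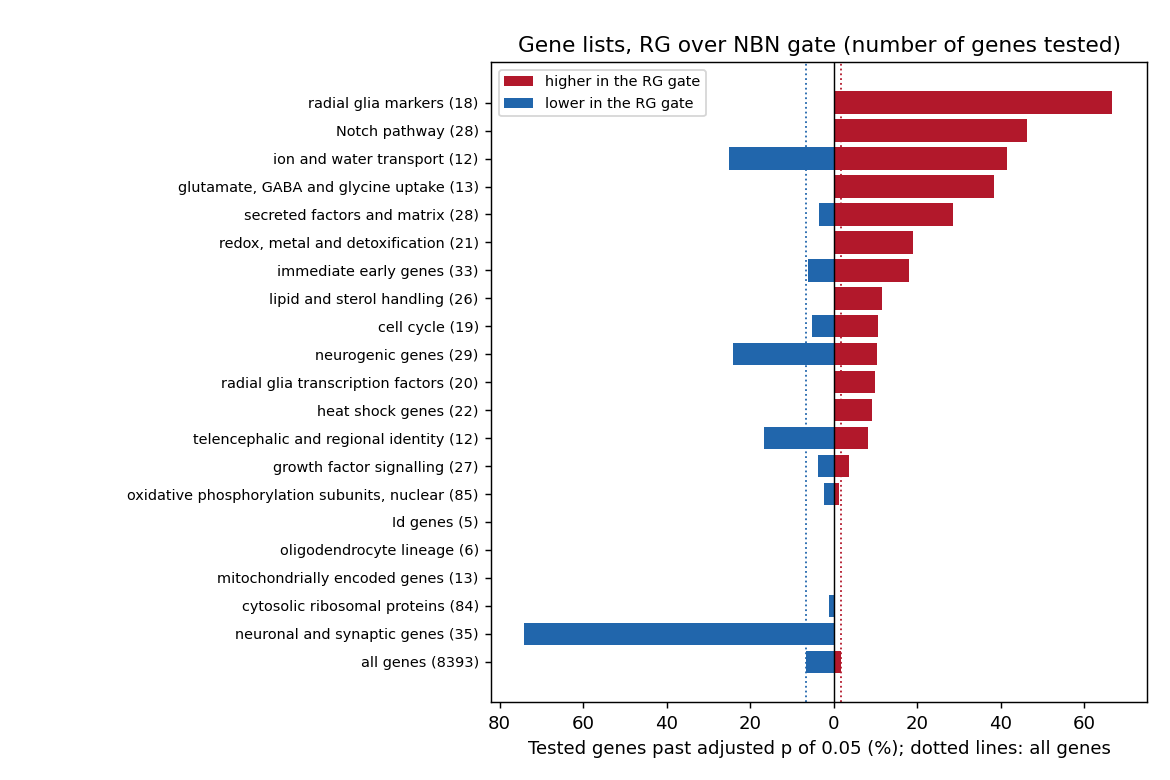
Percent of the tested genes of each list that were higher (to the right) and lower (to the left) in the RG than in the NBN gate at an edgeR adjusted p under 0.05, with the number of genes tested beside each list name and dotted lines at 1.81% and 6.66%, the values over all 8393 genes. The microglia, endothelium, erythrocyte and ciliary lists, with few tested genes, are left out. The radial glia markers (12 of 18) and the Notch pathway (13 of 28) lay far to the right, and the neuronal and synaptic genes (26 of 35) far to the left.

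Among 20 tested transcription factors of radial glia, 2 were higher (3 with the fish as a block) and 0 lower. SOX2, a factor of neural stem cells, had 86.8, 422 and 549 CPM in the RG gate, against 12.6, 48.6 and 99.9 CPM in the NBN gate (log2 fold change 2.87 ± 0.66, edgeR adjusted p = 0.0068), with the highest NBN value above the lowest RG value. sox19a, its relative, had 107, 523 and 595 CPM in the RG gate, against 0, 0.106 and 39 CPM in the NBN gate (log2 fold change 5.36 ± 1.59, edgeR adjusted p = 0.043), without overlap, and lost the call without fish 2, 3, 4 or 6 (up to 0.10). SOX3 had 181, 361 and 779 CPM in the RG gate, against 0, 7.99 and 86.8 CPM in the NBN gate (log2 fold change 4.25 ± 1.35, edgeR adjusted p = 0.065), and passed with the fish as a block (7.33, 0.0086), without fish 2 (5.55, 0.037), with RLE size factors (4.45, 0.049), in DESeq2 (4.45, 0.0019) and in thinned cells (4.4, 0.0022). PAX6 (ENSDARG00000103379) was read in 23 RG, 5 NBN and 0 MN cells and ascl1a in 25 RG, 7 NBN and 1 MN cell. The low counts kept this copy of PAX6 out of the test, and ascl1a did not pass it (log2 fold change 4.11 ± 1.77), but did in DESeq2 (adjusted p = 0.039) and in thinned cells (0.012).

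Genes of regional identity are known to mark parts of the forebrain. FEZF2, a forebrain factor, was the 1 higher gene of 12 tested in the list, which had 2 lower genes (4 with the fish as a block), at 123, 241 and 359 CPM in the RG gate, against 0, 8.93 and 14.6 CPM in the NBN gate (log2 fold change 4.98 ± 1.26, edgeR adjusted p = 0.015). TBR1, a factor of pallial glutamatergic neurons, had 0, 0.531 and 52.3 CPM in the RG gate, against 646, 1077 and 2219 CPM in the NBN gate (log2 fold change −6.72 ± 1.42, edgeR adjusted p = 0.0044). DLX5, a factor of subpallial GABAergic neurons, was lower as well (log2 fold change −8.30, edgeR adjusted p = 0.0044), and both it and TBR1 showed no overlap. Without the RG cell with microglia genes the log2 fold change of DLX5 was −10.01. EMX2 and LHX2, further forebrain factors, were read in 14 and 18 RG cells and did not pass (log2 fold change 2.75 ± 1.93 and 2.16 ± 1.38).

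Of 19 tested cell cycle genes, 2 were higher (1 with the fish as a block) and 1 lower. CCND1, a cyclin of the G1 phase, had 48.9, 260.0 and 668 CPM in the RG gate, against 0, 0.24 and 6.39 CPM in the NBN gate (log2 fold change 8.08 ± 1.41, edgeR adjusted p = 0.0011), without overlap. PCNA, a clamp of DNA replication, had 105, 326 and 3589 CPM in the RG gate, against 35.7, 134 and 302 CPM in the NBN gate (log2 fold change 2.66 ± 0.80, edgeR adjusted p = 0.046) and was read in 21 RG cells, of which 7 were of fish 2, the fish with the highest level. Without fish 2 its edgeR adjusted p was 0.45, without fish 3, 5 or 6 it was 0.050 to 0.074, and in the blocked fit it was 0.1. mki67, a protein of dividing cells, was read in 5 RG and 2 NBN cells, and TOP2A, a topoisomerase, in 3 RG and 0 NBN cells, too few for the test. The 52 cell cycle genes took 0.139%, 0.355% and 1.14% of reads in the RG gate, against 0.584%, 0.834% and 1.06% in the NBN gate. Most of the NBN share was STMN1, and the other 51 genes took 0.109%, 0.292% and 1.04% of reads in the RG gate, against 0.0847%, 0.121% and 0.141% in the NBN gate. STMN1, a destabilizer of microtubules and a member of this list, had 231, 741 and 1256 CPM in the RG gate, against 6306, 7676 and 11630.1 CPM in the NBN gate (log2 fold change −3.48 ± 0.40, edgeR adjusted p = 2.15e-05).

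Of 29 tested neurogenic genes, 3 were higher (DLL1, PCNA and BTG2) and 7 were lower, against 2 and 12 with the fish as a block. tubb5, a beta tubulin of young neurons, had 0.411, 70.4 and 329.5 CPM in the RG gate, against 2077, 4426 and 10246 CPM in the NBN gate (log2 fold change −5.35 ± 1.2, edgeR adjusted p = 0.006), and MARCKS, a substrate of protein kinase C, had 42.3, 336 and 682 CPM in the RG gate, against 1205, 2212 and 3449.8 CPM in the NBN gate (log2 fold change −2.68 ± 0.56, edgeR adjusted p = 0.0041). tmsb4x, an actin-binding thymosin, had 996, 1137 and 1677 CPM in the RG gate, against 1957, 4094 and 5840.4 CPM in the NBN gate (log2 fold change −1.69 ± 0.34, edgeR adjusted p = 0.0035), and lost the call without fish 1, 3 or 5 (0.059, 0.062 and 0.059). None of these overlapped. NEUROD6 and NEUROD2, factors of differentiating neurons, had 0 reads in the RG gate (edgeR adjusted p = 3.87e-05 and 0.0018). By the nominal floor used for ERBB4 they were 1480.2-fold and 557-fold lower than in the NBN gate. BTG2, an antiproliferative gene, had 377, 912 and 1464 CPM in the RG gate, against 72.2, 275 and 394 CPM in the NBN gate (log2 fold change 1.81 ± 0.50, edgeR adjusted p = 0.029) and was not called with the fish as a block (0.062) or without fish 2, 4 or 6 (0.053, 0.11 and 0.056). SOX4 and SOX11 (ENSDARG00000077811), factors of young neurons, did not pass (log2 fold change −1.54 ± 0.86 and −0.54 ± 1.19), and the sign of SOX11 turned without fish 3.

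Neuronal and synaptic genes fell in the RG gate more often than those of any other list. The RG gate was sorted as negative and the NBN gate as positive for GFP driven by the promoter of elavl3, a neuronal gene. The fall of this list is therefore not independent of the sort. Of 35 tested, 26 were lower (30 with the fish as a block) and 0 higher, with a median log2 fold change of −7.29, and of the 49 listed genes with a read in any cell 14 had 0 reads in the RG gate. The list took 0.0368%, 0.0894% and 0.115% of reads in the RG gate, against 1.83%, 2.23% and 2.51% in the NBN gate, and 3.19% of the MN reads of fish 6. SNAP25 (ENSDARG00000020609), a protein of synaptic vesicle fusion, had 0, 0 and 1.44 CPM in the RG gate, against 688, 1544 and 1839.9 CPM in the NBN gate (log2 fold change −12.38 ± 1.13, edgeR adjusted p = 3.15e-06) and was read in 2 RG, 129 NBN and 27 MN cells. STMN2 (ENSDARG00000033234), a protein of growing axons, had 0, 0.134 and 0.722 CPM in the RG gate, against 1554, 1701 and 1866 CPM in the NBN gate (log2 fold change −12.37 ± 0.81, edgeR adjusted p = 1.27e-07). SV2A, a synaptic vesicle protein, had 0 reads in the RG gate and was 596-fold lower by the nominal floor used for ERBB4 (edgeR adjusted p = 5.09e-04). Some members were read more widely, such as rtn1a, a reticulon, with reads in 32 of 73 RG cells at 63.1, 121 and 310.2 CPM in the RG gate, against 1742, 2504 and 2976 CPM in the NBN gate (log2 fold change −4.06 ± 0.43, edgeR adjusted p = 1.01e-05).

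The list of immediate early genes, which are induced within minutes of a stimulus, had 6 higher (7 with the fish as a block) and 2 lower genes of 33 tested. FOS, part of the AP-1 factor, had 2967, 6006 and 12711 CPM in the RG gate, against 445, 1045 and 1414 CPM in the NBN gate (log2 fold change 2.73 ± 0.42, edgeR adjusted p = 3.81e-04), and JUNB, another part, had 1532, 2811 and 4987 CPM in the RG gate, against 226, 436 and 1052 CPM in the NBN gate (log2 fold change 2.4 ± 0.43, edgeR adjusted p = 0.0013). Neither overlapped. ZFP36L2, which promotes mRNA decay, had 215, 805 and 917 CPM in the RG gate, against 0, 0 and 22.2 CPM in the NBN gate (log2 fold change 7.66 ± 1.73, edgeR adjusted p = 0.0062). egr1 rose by 2.33 and DUSP1, a phosphatase of MAP kinases, by 5.13 (edgeR adjusted p = 0.02 and 0.03). The value of egr1 was 0.084 without fish 2 and 0.054 without fish 4, and that of DUSP1 was 0.066, 0.055 and 0.066 without fish 2, 5 and 6. The neuronal activity factor NPAS4 had 0, 0 and 1.08 CPM in the RG gate, against 3.07, 254 and 766 CPM in the NBN gate (log2 fold change −10.68 ± 1.62, edgeR adjusted p = 3.02e-04), and GADD45G (ENSDARG00000019417) fell by 6.22 (edgeR adjusted p = 0.028, and up to 0.14 without any 1 of fish 1, 2, 3, 4 or 6). JUN had a log2 fold change of −0.14 ± 0.39 (edgeR adjusted p = 0.93), and this sign turned with RLE size factors, in DESeq2, in thinned cells, without the 9047-gene NBN cell and without fish 1, 3 or 5. The 43 genes took 1.39%, 2.34% and 2.98% of reads in the RG gate, against 0.661%, 0.839% and 1.08% in the NBN gate. Cells were dissociated with papain before the sort, and the part of that step in these levels was not tested.

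Of 22 tested heat shock genes, 2 were higher and 0 lower. BAG3, a co-chaperone, had 434, 1354 and 2073 CPM in the RG gate, against 84.6, 162 and 334 CPM in the NBN gate (log2 fold change 3.0 ± 0.51, edgeR adjusted p = 7.57e-04) and HSPB1, a small heat shock protein, had 234, 1918 and 3988 CPM in the RG gate, against 0, 4.35 and 228 CPM in the NBN gate (log2 fold change 5.22 ± 1.48, edgeR adjusted p = 0.033). HSPB1 was not called without fish 2, 4 or 6 (0.053, 0.10 and 0.089). The list took 3.34%, 6.28% and 9.82% of reads in the RG gate, against 3.67%, 6.30% and 7.77% in the NBN gate, with overlapping ranges, and hsp70l, an inducible chaperone, had 5984, 11927 and 20902 CPM in the RG gate, against 9676, 17187 and 27569 CPM in the NBN gate (log2 fold change −0.45 ± 0.31, edgeR adjusted p = 0.55).

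Of 84 ribosomal protein genes, 83 had a positive log2 fold change, with a median of 0.47, but edgeR and DESeq2 called 0 higher, and 2 were higher at an unadjusted p under 0.05. In edgeR 1 gene was called lower. The genes took 7.49%, 10% and 19.1% of reads in the RG gate, against 2.21%, 6.92% and 10.3% in the NBN gate, with overlap. Of 85 tested nuclear genes of oxidative phosphorylation, COX4I2 was higher (log2 fold change 2.62) and cox6b1 and ndufa4b were lower (−6.06 and −6.29). cox6b1 lost the call without any 1 of fish 1 to 5 (up to 0.13) and without the 9047-gene NBN cell (0.058), and ndufa4b without fish 1, 4 or 5 (up to 0.067). Without the RG cell with microglia genes the log2 fold change of cox6b1 was −12.15. Of 13 mitochondrially encoded genes 0 passed in edgeR, at an unadjusted p under 0.05 or in DESeq2.

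The 15 largest rises past the threshold, among 138 genes with at least 50 CPM in the higher gate and the same direction in all 6 fish, were cyp2p6, sb:cb81, SLC16A4, LIX1, plekhg4, s100v2, her8.2, lgals2a, tnfrsfa, zgc:153704, ATIC, CCND1, DIPK1C, acsl2 and YAP1. They spanned log2 fold changes of 7.69 to 10.67, and the NBN values of most were at or near 0, so that these sizes are not precise. LIX1 had 185, 403 and 1657 CPM in the RG gate, against 0, 0 and 6.82 CPM in the NBN gate (log2 fold change 9.16 ± 1.62, edgeR adjusted p = 0.0012) and was read in 53 RG cells, the most of the 15. sb:cb81 had 119, 323 and 662 CPM in the RG gate, against 0, 0 and 3.41 CPM in the NBN gate (log2 fold change 9.54 ± 1.54, edgeR adjusted p = 5.51e-04), and her8.2, a Hes family repressor, had 66.6, 268 and 363 CPM in the RG gate, against 0, 0 and 4.69 CPM in the NBN gate (log2 fold change 8.39 ± 1.65, edgeR adjusted p = 0.0028). lgals2a, a galectin, had 136, 218 and 640.1 CPM in the RG gate, against 0, 0 and 5.54 CPM in the NBN gate (log2 fold change 8.33 ± 1.65, edgeR adjusted p = 0.003), and acsl2, a long-chain acyl-CoA synthetase, had 28.7, 156 and 318 CPM in the RG gate, against 0, 0 and 4.69 CPM in the NBN gate (log2 fold change 7.75 ± 1.76, edgeR adjusted p = 0.0065). None of these overlapped. SLC16A4, a monocarboxylate transporter family member, was read in 11 RG cells, and its level spanned 4.76, 75.2 and 188 CPM over the RG sums.

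The 10 largest falls, among 394 genes, had 0 reads in all 73 RG cells. Among them were RTN4R, eno2, STMN4 (ENSDARG00000043932), chga, GNG13, si:ch211-10a23.2, CAMK1G, CKMT1B and cplx2a, and each was read in 41 to 83 NBN cells. By the nominal floor used for ERBB4 they were 1337-fold (cplx2a) to 2717-fold (eno2) lower than in the NBN gate. These sizes are not precise. The log2 fold change of cplx2a was −13.19 in the main fit, −9.38 in thinned cells and −3.94 with all cells. eno2, the neuronal enolase, had 119, 493 and 728 CPM in the NBN gate, and chga, chromogranin A of secretory granules, had 174, 237 and 500.5 CPM. Falls of neuronal genes are not independent of the sort on elavl3:gfp.

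Genes read mainly in the RG gate were found by detection alone, with each cell at 20000 reads. A read in at least 50% of RG cells and in at most 5% of both NBN and MN cells was seen for 20 genes. At the top stood ENSDARG00000103442 with 80.8% of RG cells, 4.88% of NBN cells and 3.7% of MN cells, and at the limit NOTCH3 with 50.7%, 1.83% and 0%. fgfbp3 was read in 79.5% of RG cells, 3.05% of NBN cells and 0% of MN cells, and ZFP36L2 in 64.4%, 0.61% and 0%. With 27 MN cells, 1 cell is 3.7%, so that the MN limit of 5% allowed a single cell. The set also depended on the depth. With all reads of each cell, 9 genes met the rule, and 7 of the 20 were among them. ENSDARG00000103442 was then read in 7.93% of NBN cells and 25.9% of MN cells, and fgfbp3 in 3.66% and 11.1%. Among genes with no list, BOC, a co-receptor of hedgehog signalling, ZFP36L1 (ENSDARG00000021443), a relative of ZFP36L2, GPM6B, a proteolipid family member, and PHGDH, the first enzyme of serine synthesis, were in the set. S100B with 6.71% of NBN cells, her4.3 with 5.49% and ATP1B4 with 5.49% lay just outside, as did sox19a with 49.3% of RG cells.

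Fish 6 alone allowed the 3 gates to be set side by side. Levels in this paragraph are CPM of all reads of a sum, without TMM scaling, and so differ from those given above. In this fish fgfbp3 had 1509 CPM in its RG gate, against 86.4 CPM in its NBN gate and 0.582 CPM in its MN gate. GJA1 had 1939 CPM in its RG gate, against 92.3 CPM in its NBN gate and 0.776 CPM in its MN gate, and MDK (ENSDARG00000036036) had 1423 CPM in its RG gate, against 92.6 CPM in its NBN gate and 0.97 CPM in its MN gate. These 3 belong to the genes chosen above for a read in at most 5% of MN cells, so their low MN levels follow from that choice. Without the 9047-gene cell the NBN gate of fish 6 had 0 reads of fgfbp3 and GJA1 and 16.1 CPM of MDK. SLC1A2 had 8687 CPM in its RG gate, against 1181 CPM in its NBN gate and 187 CPM in its MN gate, and FOS had 9947 CPM in its RG gate, against 816 CPM in its NBN gate and 1095 CPM in its MN gate. Without that cell the NBN levels were 765 CPM for SLC1A2 and 501 CPM for FOS. SNAP25 ran the other way, with 1.13 CPM in its RG gate, against 1206 CPM in its NBN gate and 2759.9 CPM in its MN gate. The NBN values of fish 6 were themselves unlike those of the other fish for many of these genes, and the closing section gives the number.

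**Figure D3:**
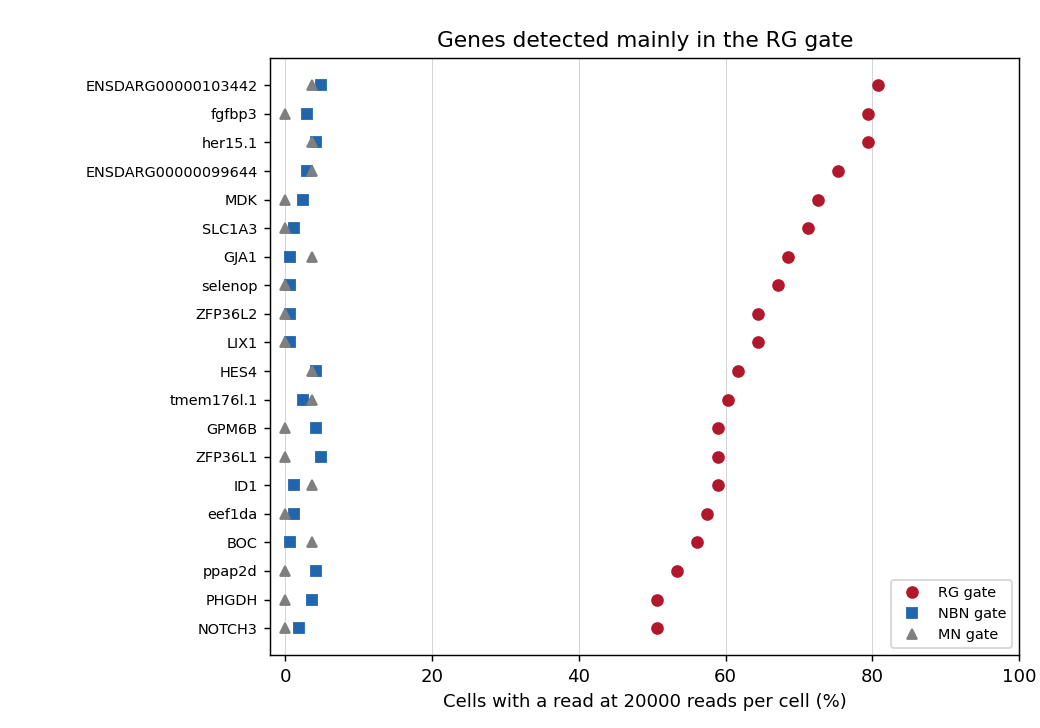
Percent of cells with at least 1 read of each of the 20 genes read mainly in the RG gate, each cell thinned to 20000 reads, for 73 RG cells, 164 NBN cells and 27 MN cells. RG shares run from 80.8% for ENSDARG00000103442 to 50.7% for NOTCH3. No NBN or MN share is above 5%, which follows from the rule that chose the genes.

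Cells within the gate differed most in the immediate early genes FOS and JUNB, the Hes repressors HES1 and HES4, GJA1, HSPB1 and a pair of genes without a descriptive name. The 1537 genes covered were read in 20% to 80% of RG cells and in at least 4 fish, at a mean of at least 50 CPM. The measure was the SD over cells of log2(CPM + 10), less the running median SD of genes with a similar mean. This excess was at least 1 for 8 genes. FOS had an excess SD of 2.05, was read in 55 cells, and its 10 highest cells held 43.2% of its reads, with up to 27888 CPM in a cell. si:dkey-238c7.13 followed at 1.45, ENSDARG00000099644 at 1.27, JUNB at 1.23, HES1 at 1.21, GJA1 at 1.12, HSPB1 at 1.1 and HES4 at 1.01. Without the cell with microglia genes 6 of these 8 passed, since HES4 had an excess SD of 0.996 and ENSDARG00000099644 no longer met the limits on cells with a read. The highest gene outside the limit, ENSDARG00000098360, had 0.98. Thus GJA1, a marker of the gate, was at 0 in 23 of 73 cells, while its median in the cells with a read was 2862 CPM. HES1 was read in 57 cells with a median of 3017 CPM in these.

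Of the 20 most variable genes, 18 fell into groups when clustered by their pairwise Pearson r over the 73 cells. The groups were built from the same correlations given here, so a high r within a group follows from the rule. The rule also sets genes of low or negative r apart, so r between groups is no separate support for them. These correlations describe cells that share fish, plates and libraries, and they carry no test. HES1, HES4, ENSDARG00000099644 and ENSDARG00000103982 had a median pairwise Pearson r of 0.58, which was 0.57 after the fish means were removed. FOS, JUNB, JUN, BAG3 and mcl1a had a median r of 0.56, and 0.55 within fish. GJA1, ptgdsb.2, selenop, ndrg3a and mfge8a had 0.57, and 0.51 within fish, and MDK (ENSDARG00000036036) and SLC1A3 had 0.58 and 0.61. The strongest pair over all cells was si:dkey-238c7.13 with ifi27.2 at 0.82, followed by FOS with JUNB at 0.73. Within fish the order turned, with 0.57 for the first pair and 0.72 for FOS with JUNB. HSPB1 and ENSDARG00000098360 were in no group.

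The Hes group and the GJA1 group ran against each other. The median r between their genes was −0.38 over all cells, −0.36 within fish and −0.38 in thinned cells. The FOS group lay between them, with a median r of 0.26 to the Hes group and −0.06 to the GJA1 group. The correlation of the 20 genes with log10 reads per cell was weak, with −0.05 for HES4, 0.12 for HES1, 0.15 for FOS, 0.17 for GJA1 and 0.29 for selenop.

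For most genes the fish differed little beside the cells of a fish. The median share of the variance over cells that lay between fish was 7.55% over the 1537 genes, with 24 genes above 25% and 4 above 50%. This share is not corrected for the number of fish. Cells grouped at random would also give a positive share, so small values are no sign of a difference between fish. For FOS it was 11.6%, for HES1 6.82% and for GJA1 12.3%. FOS was read in 3, 9, 4, 11, 7 and 21 cells of fish 1 to 6, and HES4 in 4, 8, 4, 10, 3 and 18.

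**Figure D4:**
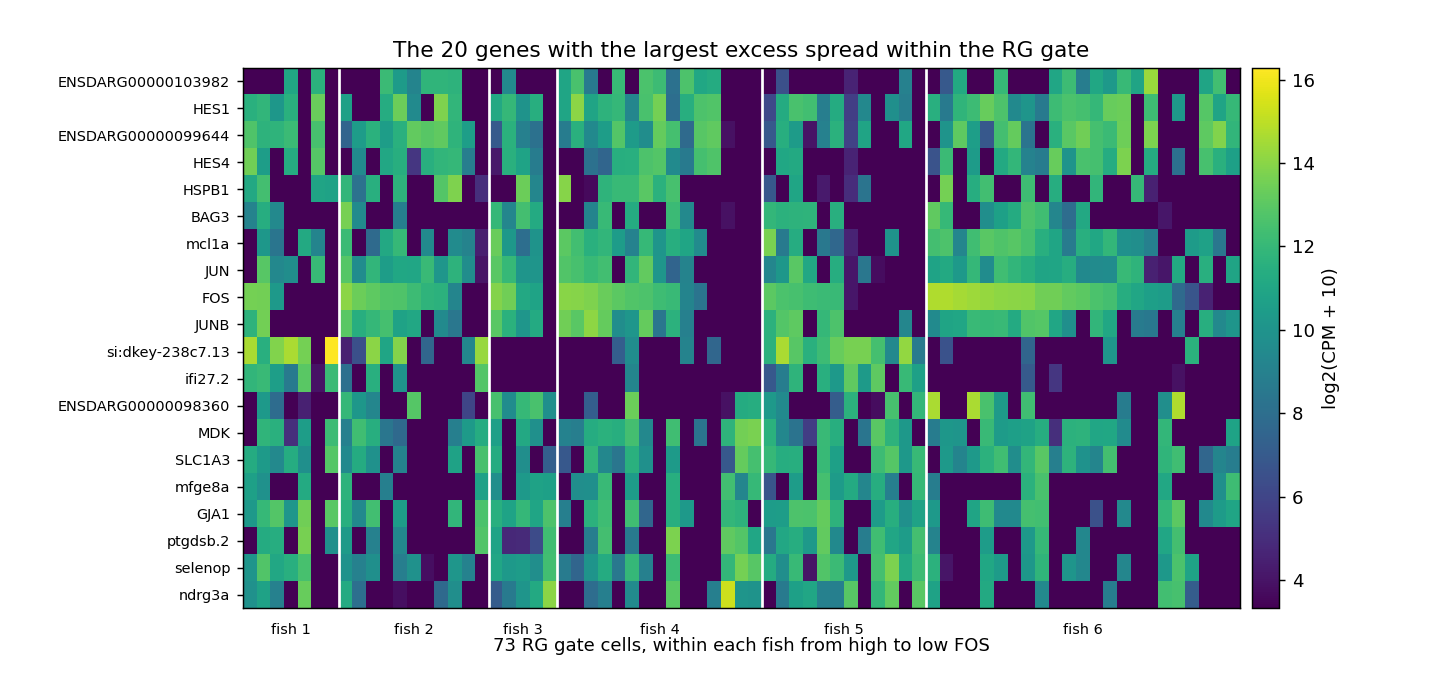
Level of the 20 genes with the largest excess SD in each of 73 RG cells, as log2(CPM + 10), with cells grouped by fish and ordered by FOS within each fish, and genes ordered by group. FOS is unread in 18 cells and reaches 27888 CPM in 1, and the median r between the genes of the HES1 group and those of the GJA1 group is −0.38.

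Genes of other cell types were scarce in the gate. Microglia and macrophage genes took 5.43e-05%, 0.0270% and 0.343% of reads in the RG gate, against 1.25e-05%, 0.00190% and 0.0139% in the NBN gate, with the highest share in fish 1 and the next highest, 0.245%, in fish 6, which holds the cell with 18 of these genes. MPEG1 and P2RY12 had 0 reads in the RG gate, but 19 of the 22 listed genes had a read there. A gene of each symbol was also unread among NBN cells and among MN cells, so these zeros do not set RG cells apart. Without the RG cell with 18 of these genes, 151 genes were higher and 563 lower than in the NBN gate. Genes of the oligodendrocyte lineage took 5.43e-05%, 0.0174% and 0.0663% of reads in the RG gate, against 0.0952%, 0.197% and 0.234% in the NBN gate, and olig1 and mbpa had 0 reads in the RG gate. The paper identified some NBN gate cells as oligodendrocyte precursors. Endothelial and mural genes took 0.00338%, 0.0240% and 0.05% of RG reads, against 0.00497%, 0.00692% and 0.0107% of NBN reads. Of the 22 listed, 11 had a read in RG cells, whereas kdrl and PDGFRB were at 0 in every gate. Of the tested genes in these 3 lists 0 were called by edgeR. At an unadjusted p under 0.05 there were 1 of 1 microglia, 2 of 3 endothelial and 2 of 6 oligodendrocyte genes, and DESeq2 called 0, 1 and 2. With the fish as a block 1 microglia gene and 1 endothelial gene were higher and 2 oligodendrocyte genes lower. The endothelial gene called in DESeq2 and with the block was NOTCH3, which is also in the Notch list. NOTCH3 had a median of 186 CPM in the RG gate, so that the share of the endothelial list holds reads of a Notch receptor gene. Erythrocyte genes took 0%, 0.00932% and 0.0417% of RG reads, against 0%, 0.000432% and 0.00276% of NBN reads, and none had enough reads for the test. Ciliary genes took 0.0327%, 0.0716% and 0.179% of RG reads, against 2.50e-05%, 0.00394% and 0.0126% of NBN reads. FOXJ1, a master factor of motile cilia, was read in 10 RG and 1 NBN cell, and cfap126, a ciliary protein gene, had 13.5, 79.6 and 174 CPM in the RG gate, against 0, 0 and 5.54 CPM in the NBN gate (log2 fold change 6.61 ± 2.01, edgeR adjusted p = 0.049), a call lost without any 1 of fish 1 to 5 (up to 0.11).

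The 98 RG cells that did not pass were not used in any test, and their values describe what the filters removed. Reasons overlapped, with 90 cells over the limit for the 50 most abundant genes, 89 outside the limits for genes, 43 over that for mitochondrial reads and 27 under that for reads. They had a median of 57704 reads and 314 genes, with 89.6% of reads in their 50 most abundant genes and 18.3% mitochondrial reads. her4.1 was read in 68 of the 73 cells that passed, against 11 of the 98 that did not, and SOX2 in 42, against 4. FABP7 was read in 71 passing cells, against 55 failing ones, and SLC1A2 in 62, against 39. These counts of cells were not brought to an equal depth, and the failing cells had fewer reads. selenop was read in 52 of 73 passing and 67 of 98 failing cells. Its level per fish was 445.6, 1930.1 and 4320.1 CPM in passing cells, against 3162, 10003 and 17810.1 CPM in failing ones (lowest, median and highest, without TMM scaling), and was lower in passing cells in 6 of 6 fish. MDK (ENSDARG00000036036) showed the same order in 6 of 6 fish, at 1053, 1504 and 2531 CPM in passing cells, against 1877, 2627 and 3617 CPM in failing ones. The level was higher in failing cells in 5 of 6 fish for GLUL (ENSDARG00000099776), in 3 for FABP7 (ENSDARG00000007697) and in 0 for her4.1 and SLC1A2.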

How the data were processed

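Single cells were sequenced with SMART-seq2 on a NextSeq 500. The authors aligned reads with GSNAP (2017-08-15) to GRCz10, counted uniquely aligned reads with featureCounts (1.5.3) over the genes of Ensembl, and deposited the raw count of 32266 genes in 370 cells, before filters and without normalization. Counts are of reads, not molecules, and whether counting used strand is not given in the sources used here. Of the genes, 26433 matched a symbol.

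Of the filters in the methods, those on reads, genes, the 50 most abundant genes and mitochondrial reads were applied. That on spike-in reads was not applied here, and that on mapped reads, tried as an alternative, removed no passing RG cell. Cells were sorted 1 per well and doublets were not called, so wells that hold more than 1 cell were not excluded. Whether the NBN well with a read in 9047 genes held more than 1 cell was not tested. Reads of passing cells were summed per fish and gate. RG and NBN sums were compared by the quasi-likelihood test of edgeR 4.0.16 in R 4.3.3, with TMM, filterByExpr, Benjamini-Hochberg adjustment and a threshold of 0.05, and with DESeq2 1.42.0 as an alternative. Levels are CPM of TMM-scaled sums. No TMM scaling was applied to single cells, to passing beside failing RG cells, or where the RG, NBN and MN gates of fish 6 were set side by side. The rest was done in Python 3.11.15 with matplotlib 3.10.9, pandas 2.3.3, numpy 2.4.6 and scipy 1.17.1. The tests were tested on simulated data. The gates of a fish come from 1 animal and so are paired. Over 2000 genes, r between deviations of gates of the same fish was 0.012, −0.058, −0.075, 0.0024, −0.0056 and −0.035 in fish 1 to 6. The fit without the block was the main one and the fit with it an alternative. Whether all cells of batch bfx811 are of 1 fish rests on the number of fish in the methods, and p-values cover the spread between these 6 fish. Thinned shares rest on 1 random draw.

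The cells, the gene lists and the rules were chosen with earlier results of these data known. Genes named were members of the lists by example, the 15 largest rises and 10 largest falls (past the threshold, same direction in 6 of 6 fish, at least 50 CPM in the higher gate), near-universal genes, the 20 most variable genes, and genes read mainly in the RG gate. A few more of that last set and of the genes just outside a limit were named after their values were seen. Results for a few genes are not reported here.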

Additional observations from a re-analysis of the deposited data

Results flagged for a closer look

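With 6 fish to a gate, a fish was singled out where the gap to its nearest neighbour exceeded 0.625 of the whole range of the gate (Dixon's 95% critical value). Of 141 RG values tested 20 met this. For 6 of the 20 the other 5 fish were at 0, where the rule is always met. For the others chance gives about 1 in 20 if the values are independent and normally distributed. These levels and shares need not be normal, and some are linked, since the share of a list includes its genes. The rate of chance hits here is therefore not known. In fish 6, her4.1 reached 9627 CPM (the next fish had 5048), her4.5 9497 CPM (4143) and S100B 1415 CPM (829). TBR1 at 52.3 CPM (17.7), SNAP25 at 1.44 CPM (0) and NPAS4 at 1.08 CPM (0) were also highest in fish 6. So were DLX5 at 0.361 CPM, cox6b1 at 10.5 CPM and ndufa4b at 19.9 CPM, each against 0 in the other fish, and GADD45G at 12.03 CPM was read in fish 5 alone. In fish 5, fgfbp3 reached 5546 CPM (2293), lgals2a 640.1 CPM (228) and the redox, metal and detoxification list 1.24% of reads (0.766%), while YAP1 was lowest there at 16.8 CPM (107). PCNA at 3589 CPM (727) and the cell cycle list at 1.14% of reads (0.480%) were highest in fish 2, LIX1 at 1657 CPM (512) in fish 3. In fish 4, ATP1B1 at 2.35 CPM (0.794), the oligodendrocyte list at 0.0663% (0.0241%) and the erythrocyte list at 0.0417% of reads (0.0120%) were highest.

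In the NBN gate the level in fish 6 lay apart from the other 5 fish for 34 of 116 reported genes, out of 39 such NBN values in all. This gate of fish 6 holds the cell with a read in 9047 genes, and fish 6 is the whole of its batch. For fgfbp3, GJA1, MDK (ENSDARG00000036036), SLC1A2 and FOS, the NBN levels of fish 6 without that cell are given above. Whether the genes still lie apart without the cell was not tested, nor was the part of the batch.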

How the results depend on the processing

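Of 8393 genes, 711 passed in the main test. Without the filter on low counts 1232 genes passed (378 higher and 854 lower in the RG gate), and in DESeq2 1090 (320 and 770). The genes higher in the RG gate numbered 282 with all cells, 230 in cells thinned to 20000 reads and 265 with the 4 plate labels as fish, against 152, and their share of all calls was 36.0% with all cells and 33.2% in thinned cells, against 21.4%. With the fish as a replicate block 198 genes were higher and 837 lower, and with RLE size factors 198 and 542. The median log2 fold change of all genes was −0.69 with TMM, −0.48 with RLE and −2.06 with the fish as a replicate block. Sizes from the blocked fit are to be read against that last value. Leaving out 1 fish gave 687 to 877 genes, of which 114 to 170 were higher and 547 to 738 lower. Near-universal genes numbered 104 at a limit of 90% of cells, against 48, and 50 to 64 without 1 fish. Genes read mainly in the RG gate numbered 9 without thinning and 36 with a limit of 10% in the other gates, against 20, and 17 to 25 without 1 fish. Variable genes numbered 6 to 9 without 1 fish. JUN, with a log2 fold change of −0.14, changed sign to 0.13 with RLE size factors and in DESeq2, −0.28 to 0.23 when 1 fish was left out (0.23, 0.16 and 0.14 without fish 1, 3 and 5), 0.10 in thinned cells and 0.012 without the NBN cell with 9047 genes. The same held for other genes near 0 that missed the threshold. eef1a1l1 (−0.05) had 0.23 with RLE size factors and in DESeq2, 0.092 with the replicate block, 0.29 with all cells, 0.22 in thinned cells, 0.11 without the 9047-gene NBN cell and −0.23 to 0.48 without 1 fish (0.14, 0.48, 0.025 and 0.11 without fish 1, 3, 4 and 5). ALDOC (−0.26) had 0.023 with RLE size factors and in DESeq2, 0.36 with all cells, 0.060 in thinned cells and −0.33 to 0.068 without 1 fish (0.026 and 0.068 without fish 2 and 4). DLD (0.08) had −0.20 to 0.53 (−0.20 without fish 2) and SOX11 (−0.54) −0.97 to 0.34 without 1 fish (0.34 without fish 3). Over 116 named genes and 1490 fits, 1357 kept the side of the threshold and the direction, 85 lost the call, 23 gained it and 25 changed sign. cplx2a and CAMK1G lost the call with all cells. Of the called named genes, the log2 fold change moved by over 1.5-fold for 58 of 97 with the block (47 upward), 45 of 96 without fish 6, 42 of 96 without the NBN cell with 9047 genes, 32 of 85 in thinned cells, 16 of 97 in DESeq2 and 0 of 97 with RLE size factors. Variable genes numbered 6 without the RG cell with microglia genes. Leaving out the RG cell with microglia genes (714 genes) or the NBN cell with 9047 genes (688) was chosen after seeing the data. Depth limits the RG side, whose sums are the smaller ones in most fish, and genes with few reads could not be tested.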

Other observations

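Some genes were read in uneven shares of cells across fish, and those given here were chosen after their values were seen. si:dkey-238c7.13, with 62.0% of its variance over RG cells between fish, was read in 6, 8, 0, 4, 12 and 4 RG cells of fish 1 to 6, against 6, 1, 6, 3, 6 and 1 NBN cells. ifi27.2, an interferon-inducible gene, was read in 7, 4, 0, 1, 10 and 3 RG cells, against 2, 4, 2, 1, 14 and 1 NBN cells, with 57.7% of its variance between fish. The r between the pair over 73 RG cells was 0.82, and 0.57 within fish. isg15, a ubiquitin-like interferon-induced gene, was read in 3, 7, 0, 3, 9 and 2 RG cells, against 4, 1, 1, 0, 3 and 0 NBN cells. b2m, the light chain of class I MHC, was read in 7, 11, 5, 9, 11 and 13 RG cells. In fish 5, all 12 RG cells held a read of si:dkey-238c7.13, and in fish 3 none of its 5 did. The highest share between fish, 68.4%, was that of ENSDARG00000097234, read in 21 of 23 RG cells of fish 6 and in 1 to 5 cells of each other fish.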
